A study of Mus musculus with 8 samples.

Results

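The transcripts described here are those of platelets and of megakaryocytes, the bone marrow and splenic cells that make them. The set holds 10 genes named for this lineage: the granule chemokines Pf4 and Ppbp, the adhesion receptor subunits Itga2b, Gp9, Gp1ba, Gp1bb and Gp5, the receptors Gp6 and Treml1, and the tubulin Tubb1. Probe sets were taken where the platform annotation gives one of these symbols. That left 7 of the 10 genes with a probe set of their own, out of 19938 genes measured in all. Genes were chosen by symbol, and where a gene had several probe sets the one to keep was selected on its mean log2 value over all 8 arrays; each of the 7 had 1, so that choice did not arise. Gp1ba and Gp6 are not described here because the annotation used lists no probe set for them, and Gp1bb shares its only probe set with the neighbouring gene Septin5.

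Hemophagocytes are macrophages that have engulfed blood cells, and the comparison asks how their transcripts differ from those of resting splenic macrophages. All mice were wild type C57Bl/6j males aged 8 weeks. The hemophagocytes (4 arrays, replicates 2, 3, 5 and 6) came from mice given 4 intraperitoneal doses on alternate days of 37.5 ug CpG1826, a Toll-like receptor 9 agonist, with 200 ug of clone 1B1.3A, an antibody that blocks the IL-10 receptor. The resting macrophages (4 arrays, replicates 3, 4, 5 and 6) came from mice given 200 uL PBS on the same schedule. Laser microdissection of spleen touch preparations took 20 target cells per mouse, which were pooled, and the amplified RNA was read on Affymetrix mouse gene arrays. The labels do not state how target cells were recognised or how many mice a pool holds. Since every treated array holds hemophagocytes and every PBS array resting cells, engulfment and treatment cannot be told apart.

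Platelets are cell fragments without a nucleus, released into the blood by megakaryocytes, which in mice are found in the spleen as well as in bone marrow. They carry messenger RNA inherited from the megakaryocyte, together with alpha granules filled with Pf4, Ppbp and clotting proteins, and they bind damaged vessels through the GPIb-IX-V complex, the collagen receptor Gp6 and the integrin of Itga2b and Itgb3. Platelets are among the blood cells that hemophagocytes are known to engulf. Pf4 is used as a megakaryocyte marker, although its transcript has also been found in some mouse macrophages.

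Pf4 and Ppbp, both CXC chemokines of the alpha granule, lie next to each other on chromosome 5 in the same orientation, with transcript starts 3917 bases apart in RefSeq (GRCm38.p6). Their upstream sequences are shown because the signals of these neighbours differed on the arrays. The Ppbp signal did not exceed the measure of array background described below on any array. Each line gives the 250 bases before the transcript start on the plus strand, 5′ to 3′. The Pf4 window is chr5:90772185-90772434 and the Ppbp window is chr5:90768268-90768517. Capitals mark the ETS core GGAAG or its reverse complement CTTCC, the core bound by factors such as Fli1.
Pf4: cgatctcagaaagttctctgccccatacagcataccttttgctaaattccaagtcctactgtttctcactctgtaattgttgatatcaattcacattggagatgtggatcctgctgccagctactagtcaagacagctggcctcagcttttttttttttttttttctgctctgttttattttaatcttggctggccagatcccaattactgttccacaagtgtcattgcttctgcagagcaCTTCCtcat
Ppbp: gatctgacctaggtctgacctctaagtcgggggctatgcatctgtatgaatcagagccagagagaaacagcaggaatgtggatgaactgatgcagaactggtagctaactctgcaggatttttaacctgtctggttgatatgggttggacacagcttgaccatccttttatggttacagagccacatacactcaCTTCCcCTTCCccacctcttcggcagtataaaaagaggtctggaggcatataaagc

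The ETS core occurred once in the Pf4 window and 2 times in the Ppbp window. It was present in the windows of 9 of the 10 platelet genes and in 64.1% of all 32851 windows of the same length. A GATA core, GATAA or TTATC, was absent from the Pf4 and Ppbp windows and present in 4 of the 10 windows, against 22.6% of all windows. The core TGACAG or CTGTCA, bound by Meis homeodomain proteins, was likewise absent from both and present in 4 of the 10, against 15.9% of all. Both strands were searched, no occurrences of different cores overlapped in the sequences shown, and a match is a description of letters only.

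Pf4 differed widely between hemophagocyte arrays, and the other platelet genes did not. Pf4 (probe set 10523134) stood at 10.35 and 9.11 on hemophagocytes 3 and 5 and at 6.10 and 5.49 on hemophagocytes 2 and 6, against 6.61, 7.41, 6.61 and 7.26 on resting macrophages 3, 4, 5 and 6 (log2 array values). The hemophagocyte arrays therefore lay on both sides of the resting arrays, with hemophagocytes 3 and 5 above all 4 of them and hemophagocytes 2 and 6 below all 4. On the resting arrays and on hemophagocytes 2 and 6, Pf4 lay below the 95th percentile of the olfactory and vomeronasal receptor genes, used as a measure of array background and described below. Set against the mean of that percentile over the 4 resting arrays (7.75), Pf4 was at least 6.05-fold higher on hemophagocyte 3 and at least 2.56-fold higher on hemophagocyte 5. No fold is given for hemophagocytes 2 and 6, where neither they nor the resting arrays passed that level.

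As a group comparison Pf4 did not pass the test. Its mean was 7.76 ± 2.34 in hemophagocytes and 6.97 ± 0.42 in resting macrophages (log2, SD, n = 4 each). The difference was 0.79 on the log2 scale (SE 0.89), hemophagocyte minus resting macrophage, with a 95% interval from -1.18 to 2.76 and a limma adjusted p = 0.85 over all 19938 genes. Either direction of difference lies within that interval, and it describes signal that on 6 of the 8 arrays did not exceed the background percentile. Of the 8 arrays left out in turn, hemophagocyte 3 was the only one whose removal turned the sign, giving a difference of -0.08. The difference was 0.34 without hemophagocyte 5, 1.34 without hemophagocyte 2 and 1.55 without hemophagocyte 6. With hemophagocytes 3 and 5 both left out it was -1.18 (limma adjusted p = 0.89), a sign set by leaving out the arrays high in Pf4. With the receptor genes described below as a covariate for array background the difference was -0.21 (limma adjusted p = 0.996).

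Ppbp, the precursor of the neutrophil-attracting chemokine NAP-2, did not show the spread of its neighbour, and on no array did it pass the background percentile. It stood at 5.10, 4.80, 5.18 and 4.99 on hemophagocytes 2, 3, 5 and 6, against 5.29, 5.26, 5.14 and 5.15 on resting macrophages 3, 4, 5 and 6. Its lowest value was on hemophagocyte 3, the array on which Pf4 was highest. The receptor genes used as a measure of array background also had their lowest mean there (5.74). The groups overlapped, since hemophagocyte 5 lay above resting macrophages 5 and 6. The mean was 5.02 ± 0.16 in hemophagocytes and 5.21 ± 0.08 in resting macrophages (SD, n = 4 each), a difference of -0.20 (SE 0.09) that did not pass (limma adjusted p = 0.75). The 95% interval, -0.40 to 0.004, corresponds to a fold between 0.760 and 1.00.

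**Figure D1:**
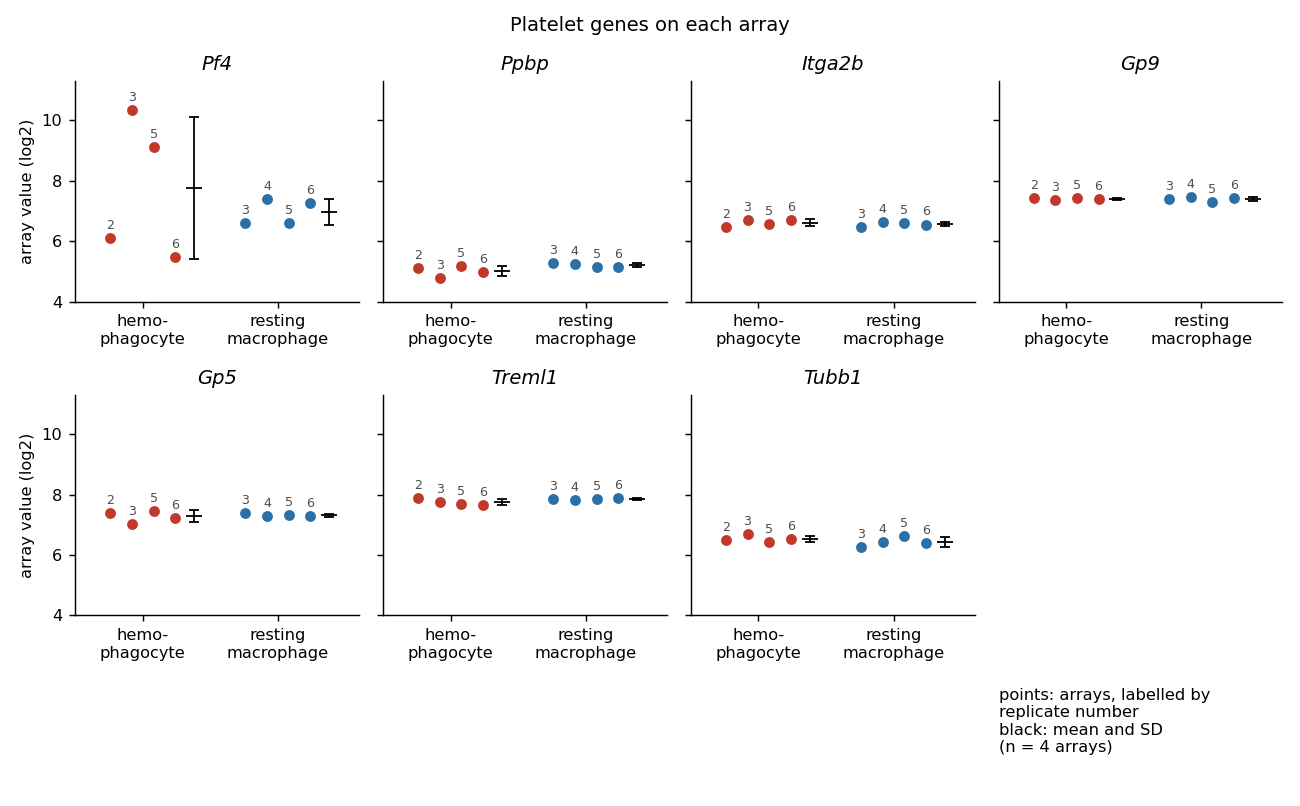
Log2 array values of the 7 platelet genes, 1 panel per gene, with hemophagocyte arrays in red and resting macrophage arrays in blue, each point labelled with its replicate number; black marks give the mean and SD of 4 arrays. Pf4 reaches 10.35 and 9.11 on hemophagocytes 3 and 5 and lies below the resting arrays on hemophagocytes 2 and 6, while every other gene spans less than 0.50 over the 8 arrays.

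The GPIb-IX-V complex binds von Willebrand factor and slows platelets at sites of injury. Gp9, the small subunit needed to bring the complex to the surface, stood at 7.42, 7.36, 7.44 and 7.39 on hemophagocytes 2, 3, 5 and 6, against 7.39, 7.47, 7.30 and 7.43 on resting macrophages 3, 4, 5 and 6. These were the most even values among the 7 genes, and the groups overlapped fully. The difference was 0.005 (SE 0.07), with a 95% interval of -0.14 to 0.15 (limma adjusted p = 0.99).

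Gp5, the subunit of the same complex that thrombin cleaves, stood at 7.40, 7.04, 7.47 and 7.22 on hemophagocytes 2, 3, 5 and 6, against 7.38, 7.28, 7.32 and 7.28 on resting macrophages 3, 4, 5 and 6. Its lowest value was again on hemophagocyte 3, where the receptor genes also had their lowest mean, and its highest was on hemophagocyte 5. The difference was -0.03 (95% interval -0.25 to 0.18, limma adjusted p = 0.94), and it was above 0 with cyclic loess normalization and with the array background covariate. The probe set annotated to both Septin5 and Gp1bb, whose signal cannot be assigned to either gene, gave 6.47 to 6.79 on hemophagocyte arrays and 6.65 to 6.81 on resting arrays, which overlapped.

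Itga2b, the alpha subunit of the platelet fibrinogen receptor, stood at 6.48, 6.71, 6.58 and 6.72 on hemophagocytes 2, 3, 5 and 6, against 6.49, 6.63, 6.61 and 6.55 on resting macrophages 3, 4, 5 and 6. The groups overlapped, and the difference of 0.05 (SE 0.08) had a 95% interval of -0.12 to 0.22 (limma adjusted p = 0.90). Itgb3, the beta subunit that pairs with it and is also made by other cells, averaged 6.92 ± 0.14 in hemophagocytes and 6.94 ± 0.13 in resting macrophages (SD, n = 4 each). Hemophagocytes 3 and 5 stood at 6.99 and 6.73 for Itgb3, within 0.26 log2 units of each other and on both sides of the resting mean.

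Treml1, a receptor stored in alpha granules and moved to the surface on activation, stood at 7.89, 7.74, 7.68 and 7.66 on hemophagocytes 2, 3, 5 and 6, against 7.86, 7.81, 7.84 and 7.89 on resting macrophages 3, 4, 5 and 6. Hemophagocytes 3, 5 and 6 lay below all resting arrays, and hemophagocyte 2 lay among them. The difference was -0.11 (95% interval -0.27 to 0.05, limma adjusted p = 0.76).

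Tubb1, the beta tubulin of the microtubule coil that keeps platelets flat, stood at 6.48, 6.69, 6.44 and 6.54 on hemophagocytes 2, 3, 5 and 6, against 6.28, 6.42, 6.64 and 6.39 on resting macrophages 3, 4, 5 and 6. Its highest value was on hemophagocyte 3, where it exceeded the highest resting array by 0.05, and the other 3 hemophagocyte arrays lay within the resting range. The difference was 0.11 (95% interval -0.10 to 0.31, limma adjusted p = 0.80).

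Over the 7 genes, limma called 0 higher and 0 lower, where 2 of all 19938 genes (0.0100%) were called, both higher. At an unadjusted p under 0.05 the counts for the 7 genes were also 0 higher and 0 lower, against 1.53% and 5.05% of all genes. None of the 7 had groups that did not overlap, against 3.71% of all genes. The median difference of the 7 genes was 0.005 and that of all genes -0.04. The 6 genes other than Pf4 had differences between -0.20 and 0.11, and no bound of their 95% intervals lay further from 0 than a 1.32-fold change in either direction. These intervals rest on the spread between arrays. For any gene that was not detected by its probe set they limit the signal and not the transcript.

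**Figure D2:**
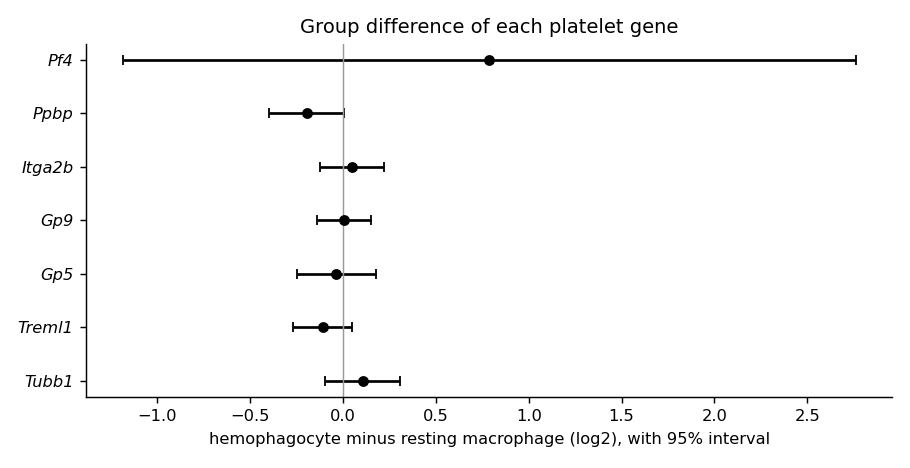
Hemophagocyte minus resting macrophage difference of each platelet gene on the log2 scale (points) with its limma 95% interval (bars), from 4 arrays per group. The Pf4 interval runs from -1.18 to 2.76, while those of the other 6 genes stay within 0.40 of 0, and all 7 contain 0.

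The spread of Pf4 was also large against other genes. Its highest and lowest arrays differed by 4.87 log2 units, and only 11 of 19938 genes, Pf4 among them, had a range that large. The other 6 platelet genes had ranges of 0.16 to 0.50, against a median of 0.39 over all genes. Within groups, the Pf4 SD was 2.34 among hemophagocytes and 0.42 among resting macrophages. The other 6 genes had SDs of 0.04 to 0.19 among hemophagocytes and 0.03 to 0.15 among resting macrophages.

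**Figure D3:**
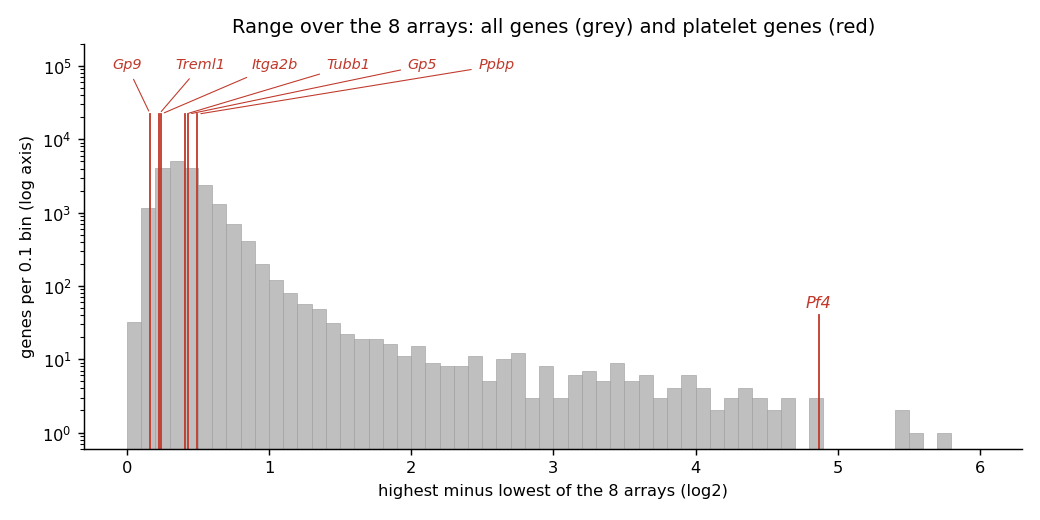
Difference between the highest and lowest of the 8 arrays for each gene (log2, horizontal axis), as a histogram in bins of 0.1 (grey, number of genes on a log axis), with the 7 platelet genes as red lines. The bins end at 6, and the few of the 19938 genes with larger ranges are not drawn. Pf4 lies at 4.87 in the sparse right tail, and the other 6 genes lie between 0.16 and 0.50 where most genes are.

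Hemophagocytes 3 and 5 held more high values of many genes than the other arrays. Genes that exceeded their 8-array median by more than 1 log2 unit numbered 154 (0.772% of genes) on hemophagocyte 3 and 159 (0.797%) on hemophagocyte 5, with 13 on hemophagocyte 2 and 30 on hemophagocyte 6, against counts of 7 to 16 per resting array. On both hemophagocytes 3 and 5 there were 55 such genes (0.276%), and Pf4 was 1 of them. None of the other 6 platelet genes was among the high genes of any array, and none departed from its own median by more than 0.35 on any array. As a measure of array background, 1196 olfactory and vomeronasal receptor genes, which are sensory neuron genes, averaged 5.74 to 6.07 on hemophagocyte arrays and 5.99 to 6.16 on resting arrays. Their lowest mean was on hemophagocyte 3. Pf4 lay above the 95th percentile of these genes (7.42 and 7.72) on hemophagocytes 3 and 5 and on none of the other arrays. Treml1 lay above it on 2 hemophagocyte and all 4 resting arrays, and the remaining 5 genes on none. Probe sets differ in their own background, so this does not decide whether a transcript was present.

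The wider set of platelet and megakaryocyte genes, listed by role with earlier results of these data known, held 107 genes, of which 99 were measured. Of these limma called 0 higher and 0 lower over all genes. At an unadjusted p under 0.05 there were 2 higher and 3 lower, against 1.53% and 5.05% of all genes. The groups did not overlap in 1 gene with higher and 1 with lower hemophagocyte values, against 0.802% and 2.90% of all genes. The median difference was -0.03, close to the -0.04 of all genes. A difference above 0 was found in 35 of the 99 genes, against 36.1% of all genes. The counts above 0 given by role below are to be read beside that share.

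Among granule cargo (15 of 18 measured, 7 with differences above 0, against 36.1% of all genes), Srgn had the smallest p. Srgn encodes serglycin, the granule proteoglycan that holds Pf4 in mouse platelet granules and that macrophages also make. It stood at 7.02, 8.74, 10.72 and 7.60 on hemophagocytes 2, 3, 5 and 6, against 6.36, 6.61, 6.77 and 6.45 on resting macrophages 3, 4, 5 and 6. The groups did not overlap, and hemophagocyte 5 was the highest, whereas Pf4 was highest on hemophagocyte 3. Srgn passed the background percentile on hemophagocytes 3 and 5 only. The difference of 1.97 (SE 0.62) did not pass (limma adjusted p = 0.75). Tgfb1, the growth factor released from alpha granules, had a difference of 0.20, and Vwf, the ligand of the GPIb-IX-V complex, spanned 7.14 to 7.21 on hemophagocyte arrays and 7.13 to 7.24 on resting arrays.

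Among adhesion and activation receptors (23 of 24 measured, 5 above 0), Itga2, the alpha subunit of a collagen-binding integrin, averaged 6.99 ± 0.13 in hemophagocytes and 7.23 ± 0.07 in resting macrophages (SD, n = 4 each), with a difference of -0.24 that did not pass (limma adjusted p = 0.75). F2rl2, the thrombin receptor cofactor of mouse platelets, also had a difference of -0.24. Fcer1g, the signalling chain of Gp6 that macrophages use for Fc receptors, reached 8.42 on hemophagocyte 5 and 7.81 on hemophagocyte 3, against 7.32 to 7.70 on resting arrays. Hemophagocyte 2, at 7.17, lay below all of these, and the difference was 0.19.

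Among genes of platelet signalling and secretion (28 of 29 measured, 11 above 0), Rap1b, the small GTPase that activates platelet integrins and is widely made, stood at 5.06, 7.60, 7.46 and 5.64 on hemophagocytes 2, 3, 5 and 6, against 4.74, 5.72, 4.81 and 5.17 on resting macrophages 3, 4, 5 and 6. It was high on the same arrays as Pf4, but hemophagocytes 2 and 6 lay among the resting values and not below them. The background percentile was 7.42 on hemophagocyte 3 and 7.72 on hemophagocyte 5, and Rap1b passed it on hemophagocyte 3 only. Its difference of 1.33 (SE 0.51) did not pass (limma adjusted p = 0.75). Pde5a, which breaks down cyclic GMP, had a difference of -0.18, with all hemophagocyte arrays (5.52 to 5.79) below all resting arrays (5.80 to 5.92). Vamp8, a membrane fusion protein of granule release, reached 7.17 on hemophagocyte 6 and 6.34 on hemophagocyte 5, against 5.72 to 5.94 on resting arrays. Plek, pleckstrin, reached 7.74 on hemophagocyte 5 and stood at 6.56 to 6.73 on the other hemophagocytes, against 6.46 to 6.61 on resting arrays. Fcer1g, Vamp8, Plek, Itgb3 and Vwf were chosen after their values were seen.

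No gene of the cytoskeleton of platelets (0 of 16 measured) or of the megakaryocyte regulators (0 of 17 measured of 20) had a range above 1 log2 unit. Was, which controls actin branching, had a difference of -0.11, and Cnn2, calponin 2, one of 0.13. Etv6, a repressor of the ETS family, had a difference of -0.18 and Mafk, a partner of Nfe2, one of -0.17. The megakaryocyte transcription factors Gata1, Gfi1b, Nfe2, Fli1 and Runx1, named after their values were seen, had differences of -0.07, -0.06, -0.03, 0.11 and -0.02. None of these passed.

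**Figure D4:**
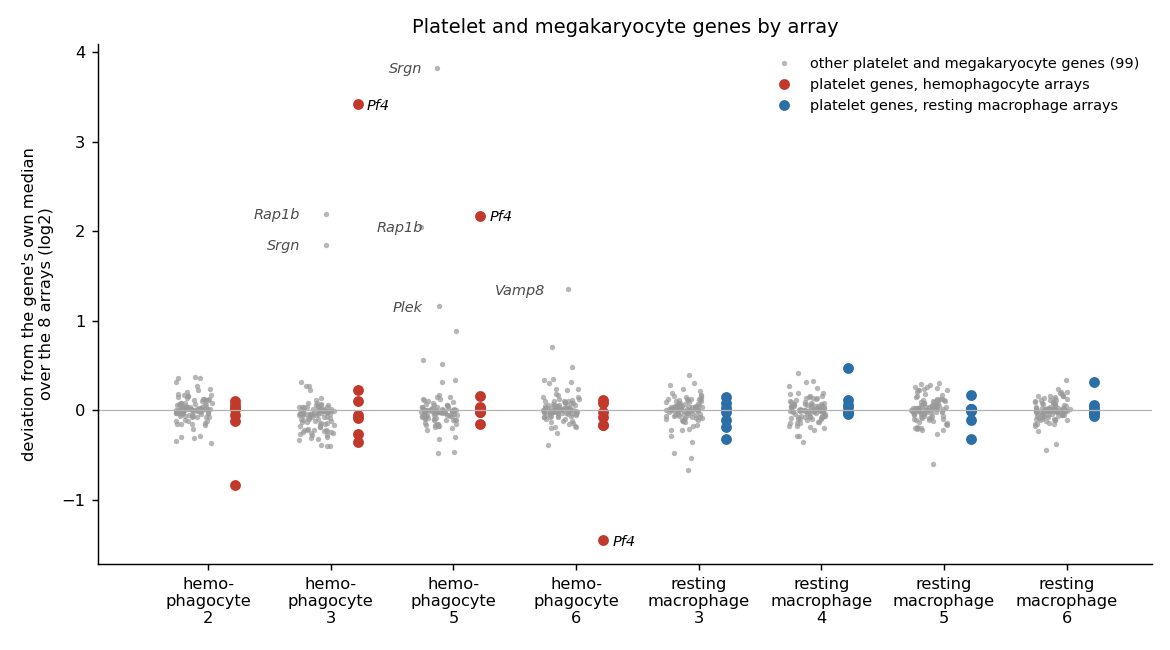
Deviation of each gene from its 8-array median (log2), by array, for 99 other platelet and megakaryocyte genes (grey) and the 7 platelet genes (red on hemophagocyte, blue on resting macrophage arrays). Pf4 departs on hemophagocytes 3 and 5 upward and on hemophagocytes 2 and 6 downward; Srgn and Rap1b are high on hemophagocytes 3 and 5, Plek on 5 and Vamp8 on 6, and the rest stay within 1 unit.

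The 5 genes whose deviations were closest to those of Pf4 were Cox17, Rps28, Micos10, Rnf7 and Rps25. Likeness was the mean absolute difference, over the 8 arrays, between a gene's deviations from its own median and those of Pf4. It was 0.50 for Cox17, a copper chaperone of mitochondria, 0.51 for the ribosomal protein gene Rps28, 0.53 for Micos10, a protein of the mitochondrial inner membrane, 0.53 for Rnf7, a ubiquitin ligase subunit, and 0.54 for the ribosomal protein gene Rps25, against a median of 1.18 over 19937 genes. None of the 5 is a platelet gene of the lists used here. Rps28 stood at 11.11 and 10.62 on hemophagocytes 3 and 5 and at 7.01 and 6.69 on hemophagocytes 2 and 6, against 6.79 to 7.97 on resting arrays. The other 6 platelet genes ranked between 3930 and 13192 by this measure, with values of 1.14 to 1.20, where a gene with no variation at all would score 1.16.

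**Figure D5:**
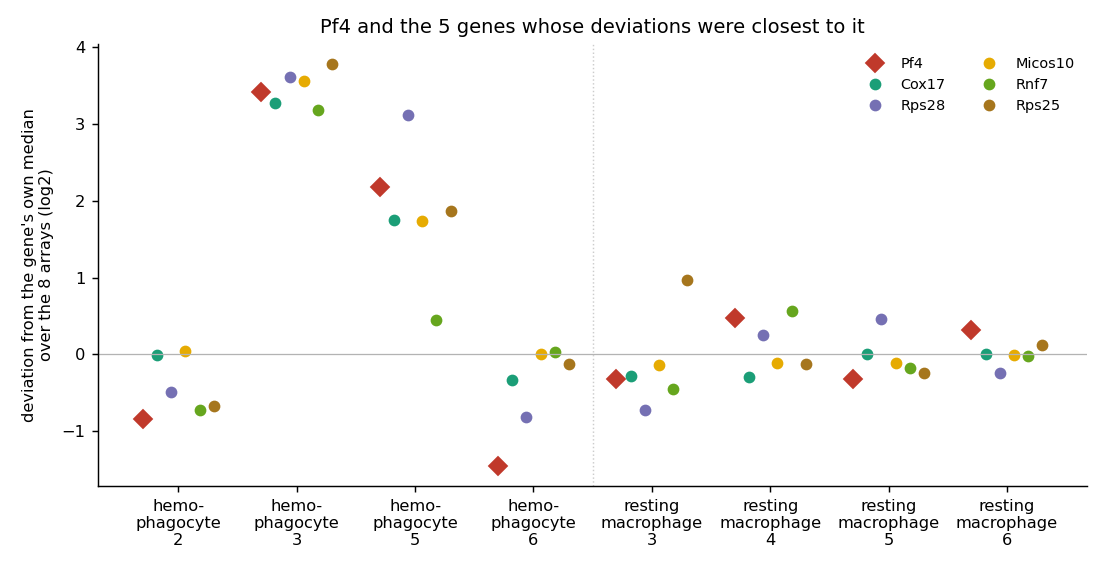
Deviation from each gene's 8-array median (log2) for Pf4 (red diamonds) and the 5 genes with the smallest mean absolute difference from it (circles), by array, hemophagocytes left and resting macrophages right of the dotted line. All 6 are more than 3 units above their median on hemophagocyte 3, and on hemophagocyte 5 all except Rnf7 are more than 1.5 units above it.

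Some markers of macrophages were high on the same arrays as Pf4. Of 15 macrophage markers, 2 were more than 1 log2 unit above their own median on hemophagocyte 3, 4 on hemophagocyte 5, and 2, Cd68 and C1qc, on both. The shares over all genes were 0.772%, 0.797% and 0.276%. Only part of the 15 markers is described singly here. Their summed level, on the linear scale, was 2398 and 4073 on hemophagocytes 3 and 5 and 1495 and 1532 on hemophagocytes 2 and 6, against 1419 to 1620 on resting arrays. Such a sum is weighted by its highest values, and on hemophagocyte 3 Cd68 and C1qc were the only markers raised by more than 1 log2 unit. The sum there therefore does not show a rise of the whole list. Cd68, found in macrophage lysosomes, measured 9.66 and 10.52 on hemophagocytes 3 and 5 and 7.21 and 7.50 on hemophagocytes 2 and 6, against 7.29 to 7.50 on resting arrays. C1qc, a chain of complement C1q, stood at 8.57 and 9.58 on hemophagocytes 3 and 5, against 6.81 to 7.33 on resting arrays. Both were higher on hemophagocyte 5 than on hemophagocyte 3, the reverse of Pf4. Cd68 and C1qc passed the background percentile on hemophagocytes 3 and 5 only. Adgre1, a surface receptor that marks mouse macrophages, stood at 5.76 and 7.38 on hemophagocytes 3 and 5, against 5.67 to 5.89 on resting arrays. Hmox1, which breaks down heme, stood at 6.77 and 7.98 on hemophagocytes 3 and 5, against 6.98 to 7.12 on resting arrays. Adgre1 and Hmox1 thus lay above all resting arrays on hemophagocyte 5 and not on hemophagocyte 3, where Pf4 was highest. Hmox1 did not exceed its own median by more than 1 log2 unit on either array. Csf1r, the macrophage growth factor receptor, spanned only 6.06 to 6.46 on hemophagocyte arrays and 6.33 to 6.48 on resting arrays. On this log2 scale no marker reads as 0, so absence of a defining macrophage marker cannot be stated from the values. The part of these differences between arrays in the Pf4 values was not tested.

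Most markers of other cells that a hemophagocyte can hold, or that can lie beside it, had ranges of at most 1 log2 unit, as did most genes. Of 12 neutrophil markers, S100a8 and S100a9 had ranges above 1. S100a8 stood at 4.60, 8.02, 6.41 and 5.12 on hemophagocytes 2, 3, 5 and 6, against 4.86 to 5.02 on resting arrays. S100a9 stood at 6.35, 9.12, 6.01 and 7.33 on the same hemophagocyte arrays, against 6.12 to 6.34 on resting arrays, so it was high on hemophagocytes 3 and 6 and not on hemophagocyte 5. The summed neutrophil level was 1086 to 1662 on hemophagocyte arrays, the highest on hemophagocyte 3, against 1050 to 1085 on resting arrays. A linear sum is weighted by its highest values, which on hemophagocyte 3 include S100a8 and S100a9. It therefore does not show a rise of the whole list. Of the 12 neutrophil markers, 5 had differences above 0 and 7 below, with a median of -0.03. None of the measured markers of erythroid cells (0 of 12), endothelial cells (0 of 8), T cells (0 of 6), B cells (0 of 6) or mast cells and basophils (0 of 6) had a range above 1. The summed erythroid level was 1301 to 1415 on hemophagocyte arrays and 1372 to 1441 on resting arrays. In pooled captured cells a smaller share of cells of a type and less RNA per cell cannot be told apart, and neither was tested for its part in the Pf4 values.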

How the data were processed

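The deposited values, by their range, are on the log2 scale. The submitters' processing notes name Affymetrix Expression Console 1.1, and the sources used here do not give the background correction, probe summary or normalization behind the values. The array medians lay between 6.10 and 6.17, and no further scaling was applied. Of 35556 probe sets, 21789 have 1 gene symbol in the platform annotation and 1621 have several. The brightest single-symbol probe set over all 8 arrays stood for each of 19938 genes, with no filter on dim probe sets. Entrez identifiers of all 7 measured platelet genes matched RefSeq. Arrays have no read depth, and precision is limited by having 4 of them per group.

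Sample titles gave the groups and replicate numbers. No label ties arrays to mice, so p-values reflect only how these samples vary, and that variation may be technical. The groups were compared in R 4.3.3 with limma 3.58.1 (lmFit, eBayes, two-sided, without a block), adjusting p by Benjamini-Hochberg over all genes at a threshold of 0.05. The script was tested on simulated data. The platelet genes and the lists were chosen with earlier results of these data known, and no list test was run. All 10 platelet genes were to be named, with the 2 genes of smallest p from each of 5 roles of the wider list (all that passed, had any passed) and the 5 genes closest to Pf4. Alternatives were other scalings, a filter on dim genes, a trended robust prior, weights for arrays, averaging of a gene's probe sets, a background covariate, arrays left out and the replicate number as a block. RefSeq sequences are of GRCm38.p6.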

Additional observations from a re-analysis of the deposited data

Results flagged for a closer look

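Plek stood at 7.74 on hemophagocyte 5, far from the other hemophagocyte arrays, which lay between 6.56 and 6.73. The gap to the nearest array was 0.851 of the whole range, above Dixon's 95% critical value for 4 samples. It was the 1 such value among 40 groups of 4 arrays (20 genes). Plek was named for its range above 1 log2 unit after its values were seen. The usual chance rate of about 1 in 20 therefore does not apply to it. Pf4 held no such value, because 2 hemophagocyte arrays were high and 2 low.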

How the results depend on the processing

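Over 18 alternatives, 0 of the 7 platelet genes and 0 of the 99 wider genes were called by limma under any setting, and adjusted p for Pf4 ran from 0.64 to 0.996. The Pf4 difference was below 0 with the background covariate (-0.21) and without hemophagocytes 3 and 5, the arrays high in Pf4 (-1.18). It ran from -0.0753 to 1.55 when single arrays were left out. Gp5 turned to 0.0083 with cyclic loess and 0.0698 with the covariate, and ran from -0.0966 to 0.0469 with single arrays left out; Gp9 ran from -0.027 to 0.0279. The cause was not tested. The other 4 genes kept their direction in every setting that measured them (Ppbp falls below the filter on dim genes), and the median of the 7 stayed between -0.027 and 0.0516. Genes called over all genes numbered 2, and 1 with median centring, cyclic loess, the trended robust prior or the covariate, 7 with the replicate block, and 1 to 11 with single arrays left out. With the replicate block the Pf4 difference was 1.49 (limma adjusted p = 0.72). Deviations of same-numbered arrays correlated at 0.17, 0.07 and 0.12 for numbers 3, 5 and 6. Hemophagocytes 3 and 6 correlated best with the resting array of their own number, and hemophagocyte 5 did not. Numbers 2 and 4 occur in 1 group each, and the labels do not say that a number marks a shared batch. The numbers were therefore not taken as pairs in the main fit. Signal not above the 95th percentile of the receptor genes limits what can be said of several values. This holds for Pf4 on the resting arrays and hemophagocytes 2 and 6, and for Ppbp, Itga2b, Gp9, Gp5 and Tubb1 on all 8 arrays. Treml1 exceeded that level on 6. The same limit holds for the values of other named genes that did not pass it, among them Rap1b, Srgn, Cd68 and C1qc on the resting arrays and hemophagocytes 2 and 6.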

Other observations

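In 3 of 19938 genes (0.0150%) hemophagocytes 3 and 5 exceeded the 8-array median by over 1 log2 unit while hemophagocytes 2 and 6 lay below all 4 resting arrays. These were Pf4, Lyz2 and Eef1a1, a selection made after the values were seen; for Pf4 the low values were not above array background. Lyz2, the lysozyme of macrophages and neutrophils, stood at 5.86, 9.95, 9.96 and 6.55 on hemophagocytes 2, 3, 5 and 6, against 8.89, 8.86, 8.71 and 7.45 on resting macrophages 3, 4, 5 and 6. Its mean was 8.08 ± 2.18 in hemophagocytes and 8.48 ± 0.69 in resting macrophages (SD, n = 4 each), a difference of -0.40 that did not pass (limma adjusted p = 0.93). Eef1a1, a translation elongation factor, stood at 7.44, 9.37, 9.14 and 7.40 on hemophagocytes 2, 3, 5 and 6, against 7.57 to 7.79 on resting arrays.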
